A study of Mus musculus with 2 samples.

Results

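Prm1, Prm2, Prm3, Tnp1 and Tnp2, the 5 protamine and transition protein genes of the mouse, were followed through 13 clusters of testis cells from mice without (WT) and with (KO) a deletion of Tex13a. They were chosen by name, and all 5 of 5 had exactly 1 row of the count matrix that their symbol can stand for, among 5476 symbols with 1 possible row and 25065 symbols listed. For Tnp2 this rests on the rule that only rows seen in under 5 cells lack a symbol; without it Tnp2 had 2 possible rows, the one used with 378640 WT UMIs and the other with 36492. Both groups were male C57BL/6 mice (C57BL/6N in the methods) of 10 to 12 weeks. In KO all reading frames of the X-linked gene Tex13a, which encodes a germ cell protein with an RNA-binding zinc finger, had been deleted with CRISPR/Cas9, and WT mice carried no edit. For each genotype 3 testes of 3 mice were pooled, digested with collagenase I and captured in microwells as 1 library, so genotype and library cannot be told apart. The cluster names Sg (spermatogonia), Sc1 and Sc2 (spermatocytes) and Sd1 to Sd10 (spermatids, with Sd1 a mixture of spermatocytes and early spermatids) are those of the authors. The comparison of KO with WT asks whether the loss of Tex13a, a partner of a complex that shortens poly(A) tails, changes how long spermatid mRNAs remain.

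During spermiogenesis the haploid nucleus is repacked. Histones are exchanged first for transition proteins and then for protamines, small arginine-rich proteins that bind DNA tightly and let the sperm head condense. The mRNAs of both families are made in round spermatids, are held in ribonucleoprotein particles and are translated days later in elongating spermatids, after transcription has stopped. From then on an mRNA can be stored, translated or degraded, but not replaced. Tnp1 and Tnp2 encode the transition proteins, Prm1 encodes a protamine that is made in its final form, and Prm2 encodes a precursor that is cut to its final form on the DNA. Prm3 lies in the same gene group and is named for its place there, since its product is acidic and not a DNA-packing protamine.

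By GENCODE vM21 coordinates (GRCm38, the assembly also called mm10), the transcripts used here for 4 of the 5 genes, 1 per gene, lie within 8951 bases of chromosome 16, all on the minus strand. Prm1 and Prm2 each have a second, longer annotated transcript, with which their gene models end at 10805839 and 10796134. The transcript of Prm1 (ENSMUSG00000022501.6) runs from 10796326 to 10796886 with 2 exons. That of Prm2 (ENSMUSG00000038015.6) runs from 10791380 to 10792105 with 2 exons, 4220 bases downstream of that Prm1 transcript. Prm3 (ENSMUSG00000050058.6) has 1 exon from 10790505 to 10790914, only 465 bases beyond Prm2. Tnp2 (ENSMUSG00000043050.8) runs from 10787936 to 10788660 with 2 exons after a further 1844 bases. Tnp1 (ENSMUSG00000026182.6) is on chromosome 1 from 73015074 to 73015909, also with 2 exons and on the minus strand. On the opposite strand 1700027A15Rik overlaps Tnp1 by 40 of its 437 exon bases. Whether the authors' counting used strand is not given in the sources used here, so reads in those 40 bases could be split either way.

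The sequences before the start sites are shown because all 5 members have their high levels in the later spermatid clusters, though not from the same cluster on. They are from the RefSeq promoter table (GRCm38.p6), 5' to 3' on the strand of the gene, numbered from the RefSeq start site, and all 5 members had an entry. For Prm1 only short windows are printed, since GENCODE places exon bases up to 63 bases before that start. Capitals mark TGANNTCA, a relaxed form of the cyclic AMP response element that CREM-type factors bind, and TATA, the core of the TATA box.
Prm1, chr16:10796870-10796897, minus strand, bases -74 to -47: tggtcctcttTGACTTCAtaattcctag
Prm1, chr16:10796842-10796865, minus strand, bases -42 to -19: cactagtatcTATAagaggaagag
Prm2, chr16:10792106-10792225, minus strand, bases -120 to -1: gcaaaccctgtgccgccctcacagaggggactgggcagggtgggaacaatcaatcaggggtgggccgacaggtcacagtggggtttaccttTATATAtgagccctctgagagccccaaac
Prm3, chr16:10790915-10791034, minus strand, bases -120 to -1: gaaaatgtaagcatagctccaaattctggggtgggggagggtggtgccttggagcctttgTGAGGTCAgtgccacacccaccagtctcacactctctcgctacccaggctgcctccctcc
Tnp1, chr1:73015910-73016019, minus strand, bases -120 to -11: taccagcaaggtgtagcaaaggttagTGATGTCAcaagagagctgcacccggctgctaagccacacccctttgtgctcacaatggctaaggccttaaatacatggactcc
Tnp2, chr16:10788661-10788775, minus strand, bases -120 to -6: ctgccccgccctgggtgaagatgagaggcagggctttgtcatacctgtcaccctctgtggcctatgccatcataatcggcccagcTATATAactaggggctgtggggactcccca
The full palindrome TGACGTCA, searched on both strands in the 120 bases before the start, was in 0 of the 5 members and in 1.31% of 27025 RefSeq promoters. TGANNTCA, which includes that palindrome, was in Prm1 (TGACTTCA from -64 to -57), Prm3 (TGAGGTCA from -60 to -53) and Tnp1 (TGATGTCA from -94 to -87), that is in 3 of 5, against 7.23% of all promoters. TATA on the sense strand between -40 and -21 was in Prm1, Prm2 and Tnp2, again 3 of 5, against 5.67%. Each match is a description of letters only. The hexamer AGGUAA, to which the zinc finger of Tex13a binds according to the literature behind the study, was searched as AGGTAA in the whole transcripts. It was in 0 of the 7 annotated member transcripts, which are 410 to 674 bases long, and in 5.86% of 8602 protein-coding transcripts of 400 to 700 bases.

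The WT library held 45568532 UMIs (counted mRNA molecules) in 5170 cells, with a median of 6508 per cell, and the KO library 67734689 UMIs in 7238 cells, with a median of 6714.5. No cell barcode was shared (0). Clusters held between 130 and 700 WT cells and between 99 and 1057 KO cells. Levels are CPM, the UMIs of a gene summed over the cells of a cluster and given per 1000000 UMIs of that cluster. With 1 library per genotype there was no replicate, no test and no p-value, and the 95% intervals cover counting error only. In their place a difference is counted where KO was at least 25% above or at least 20% below WT, which is the same fold in both directions. Markers of somatic cells could be read in part. Cyp17a1 of Leydig cells was at no more than 10.2 CPM and Myh11 of peritubular cells at no more than 14.0 CPM in any cluster of either library. Blood and macrophage markers were higher in several clusters and are given with the results. Of the 7 Sertoli cell and 3 endothelial markers 0 had a single possible row. Markers of spermatogonia and meiotic entry, 4 genes with Stra8 and Dazl leading, summed to 6974 CPM in WT Sc1 and 3130 CPM in WT Sg. The sum was thus highest in Sc1 and not in Sg, and it rests on Stra8 and Dazl. The other readable genes, Uchl1 (at most 511 CPM in WT) and Kit (at most 22.5 CPM in WT), were highest in Sg in both libraries. The spermatocyte list of 7 genes was also highest in Sc1 (9865 CPM). The symbol Tex13a could stand for more than 1 row and was not read here, so the labels were not checked on the deleted gene.

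The 5 transcripts together took up a large share of all mRNA molecules in the later spermatids. Their sum was 0.695% of UMIs in WT Sd2 and 0.758% in KO Sd2, then 3.07% and 3.65% in Sd4, and 15.7% and 15.4% in Sd5. The share was highest in Sd8, with 28.8% in WT and 28.3% in KO. It was 23.9% and 22.9% in Sd9, and 15.5% and 14.4% in Sd10. Between Sd8 and Sd10 the summed level decreased by 0.89 (log2, interval -0.90 to -0.88) in WT and by 0.97 (-0.98 to -0.96) in KO. Since the authors drew the clusters from the expression of all genes, these included, the course over clusters is a description and carries no test. Over a whole library the sum was 10.2% of UMIs in WT and 7.95% in KO, a value that moves with how many cells of each cluster a library holds, so only levels within a cluster are compared between genotypes.

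**Figure D1:**
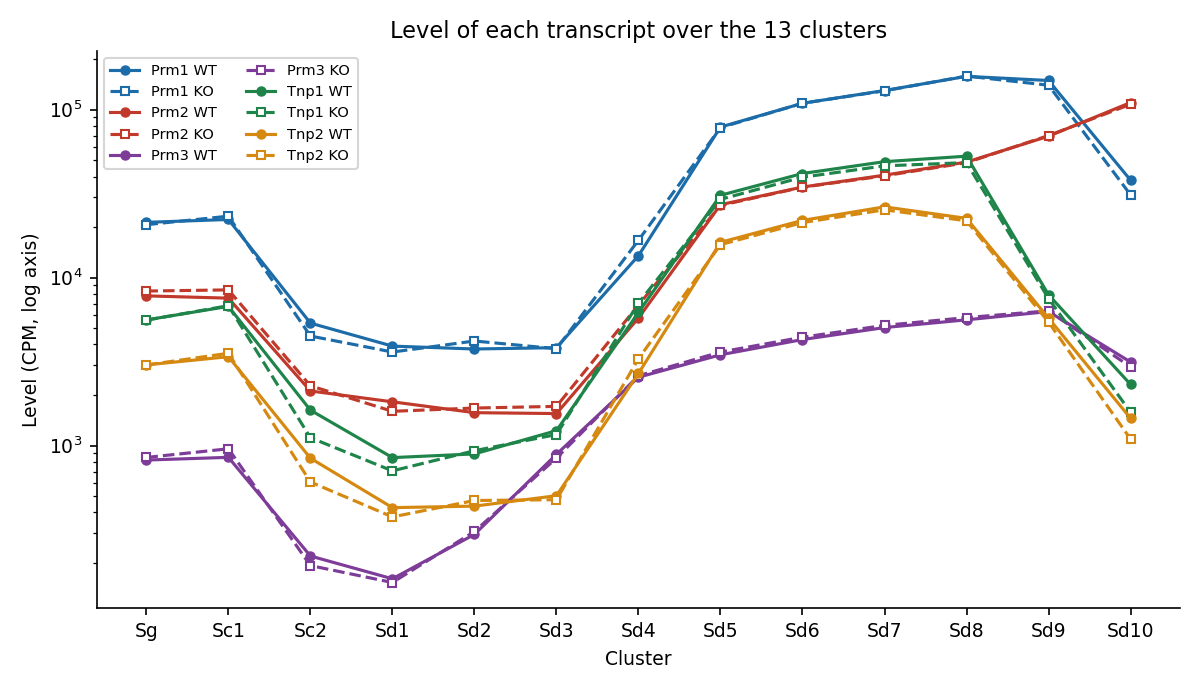
Level in CPM (vertical log axis) of Prm1, Prm2, Prm3, Tnp1 and Tnp2 in the 13 clusters (horizontal axis), with filled circles and solid lines for the WT library and open squares and dashed lines for the KO library. In both libraries Tnp2 is highest in Sd7, Prm1 and Tnp1 in Sd8, Prm3 in Sd9 and Prm2 in Sd10.

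Tnp1, the gene of the smaller and more abundant transition protein, was at 848 CPM in WT and 707 CPM in KO in Sd1. It reached 6206 and 7052 CPM in Sd4, 30923 and 29234 CPM in Sd5, 41682 and 39625 CPM in Sd6, and 49019 and 46285 CPM in Sd7. Most of the climb thus lay between Sd3 and Sd6. Its highest level was in Sd8, at 52859 CPM in WT and 48400 CPM in KO. It was far lower in the next cluster, at 7903 CPM in WT and 7507 CPM in KO in Sd9, which is 15.0% and 15.5% of the Sd8 level. In Sd10 it was at 2313 CPM in WT and 1580 CPM in KO, or 4.38% and 3.26% of the highest level. Tnp1 thus had the steepest drop of the 5 transcripts between neighbouring clusters, in both libraries.

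Tnp2, which encodes the other transition protein, turned down 1 cluster earlier. It was at 2687 CPM in WT and 3289 CPM in KO in Sd4 and at 16224 and 15715 CPM in Sd5. It was highest in Sd7, with 26382 CPM in WT (95% counting interval 26242 to 26523) and 25340 CPM in KO (25212 to 25468). In Sd8 it was already lower, at 22535 and 21792 CPM, or 85.4% and 86.0% of the highest level, while Tnp1 was still higher than in Sd7. In Sd9 it was at 5739 and 5434 CPM and in Sd10 at 1454 and 1093 CPM. Per 100 Tnp1 UMIs there were 42.6 Tnp2 UMIs in WT Sd8 and 72.6 in WT Sd9, with 45.0 and 72.4 in KO, so that relative to Tnp2 less Tnp1 was left in Sd9.

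Prm1, the protamine gene without a precursor stage, had the most UMIs of the members in both libraries. It was at 13515 CPM in WT and 16694 CPM in KO in Sd4, at 78806 and 78173 CPM in Sd5, at 109145 and 109212 CPM in Sd6 and at 130040 and 129497 CPM in Sd7. It was highest in Sd8, at 157913 CPM in WT (157516 to 158312) and 158505 CPM in KO (158148 to 158861). In Sd9, where the transition protein mRNAs had dropped, Prm1 was still at 149173 CPM in WT and 139848 CPM in KO, which is 94.5% and 88.2% of its highest level. In Sd10 it was at 38041 and 31101 CPM, or 24.1% and 19.6%. Prm1 therefore stayed near its highest level 1 cluster longer than Tnp1.

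Prm2 was the 1 member that did not turn down. It was at 5749 CPM in WT and 6866 CPM in KO in Sd4, at 27188 and 26923 CPM in Sd5, and at 48757 and 48361 CPM in Sd8. From there it went to 69505 and 70126 CPM in Sd9 and to 110257 CPM in WT (109676 to 110840) and 107681 CPM in KO (107197 to 108167) in Sd10, its highest cluster. CPM are shares of all UMIs and do not count molecules per cell. Counted per cell, Prm2 had a mean of 751 UMIs in WT Sd10 and 683 in KO Sd10. Its medians were nearer, at 637 and 622 UMIs, with cluster medians of 5271 and 5287 UMIs of all genes per cell.

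Prm3 rose first and had the flattest course. It was at 161 CPM in WT and 153 CPM in KO in Sd1, its lowest cluster, and was higher in each of the next clusters, with 296 and 308 CPM in Sd2, 887 and 843 CPM in Sd3 and 2553 and 2604 CPM in Sd4. In Sd4 it had thus reached 40.7% of its highest level in WT and 41.0% in KO, when the other members were between 5.21% and 11.7% in WT and between 6.38% and 14.6% in KO. It was at 3472 and 3606 CPM in Sd5, at 5607 and 5783 CPM in Sd8, and highest in Sd9 at 6280 and 6344 CPM. In Sd10 it was still at 3143 and 2940 CPM, which in KO is 46.3% of the highest level, against 19.6% for Prm1 and 3.26% for Tnp1.

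**Figure D2:**
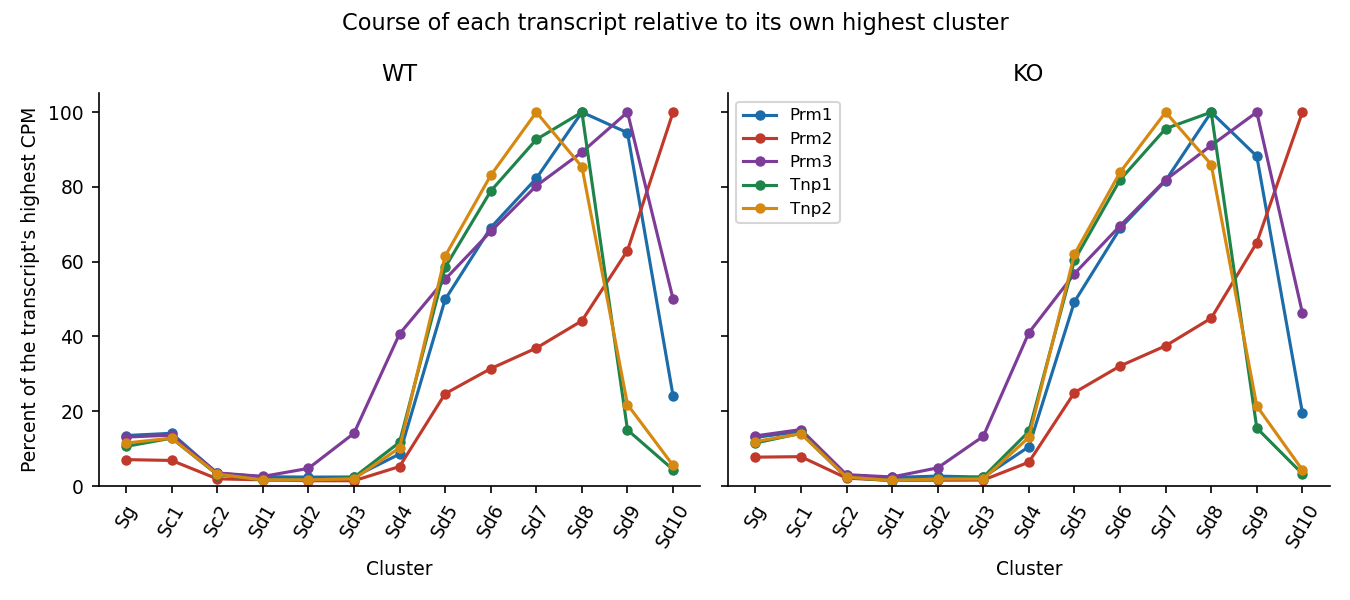
Percent of each transcript's own highest CPM (vertical axis) over the 13 clusters (horizontal axis), for WT on the left and KO on the right, with 1 line per gene. In both libraries Prm3 stands above the others in Sd3 and Sd4, Tnp1 and Tnp2 are at 21.8% or less in Sd9, and Prm2 is the only line still rising in Sd10.

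From the highest level down, the libraries put 10 clusters in the same order for Prm1, 7 for Prm3, 6 each for Prm2 and Tnp2, and 5 for Tnp1. Below these, the order differed between libraries and some neighbours were not separated by their counting intervals. In WT these were Sd1, Sd3 and Sd2 for Prm1, Sg and Sc1 as well as Sd2 and Sd3 for Prm2, Sd3, Sc1 and Sg for Prm3, and Sd2 and Sd1 for Tnp1 and Tnp2. From Sd5 to Sd9, all neighbours in the order were separated for each member in both libraries.

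Cells that precede the spermatid stage also held UMIs of all members, and these values set the background. In Sg, which should lack protamine mRNA, Prm1 was at 21336 CPM in WT and 20665 CPM in KO, and 100% of WT cells and 99.5% of KO cells had a Prm1 UMI, at cluster medians of 6133 and 5859 UMIs per cell. In Sg and Sc1 together Prm2 was between 7546 and 8452 CPM, Tnp1 between 5583 and 6806 CPM, Tnp2 between 3021 and 3545 CPM and Prm3 between 820 and 957 CPM in the 2 libraries. The mixture of members in Sg was near that of the library as a whole. Per 100 Prm1 UMIs, WT Sg held 36.5 of Prm2, 3.84 of Prm3, 26.2 of Tnp1 and 14.2 of Tnp2, against 39.8, 4.52, 30.7 and 15.5 in all WT cells. The UMIs were also uneven over cells: the mean was 160 Prm1 UMIs per WT Sg cell and the median 25. The background was not even over clusters: Sc2 to Sd3 held less of each member than Sg, except Prm3 in WT Sd3 at 887 CPM. Levels at or below those of Sg are therefore not read as expression by themselves, and whether they come from free RNA or from mixed wells was not tested.

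The ratio of Prm3 to Prm1 was higher in Sd3 than in Sd1 in both libraries. The mixture of the other members also differed from that of Sg in these clusters, with 46.6 Prm2 UMIs (45.5 to 47.7) per 100 Prm1 in WT Sd1 against 36.5 in Sg and 21.7 of Tnp1 (21.0 to 22.4) against 26.2, so a difference from the Sg mixture is not by itself read as expression. Per 100 Prm1 UMIs, Prm3 had 4.11 UMIs (interval 3.83 to 4.40) in WT Sd1, 7.87 (7.32 to 8.45) in Sd2 and 23.2 (22.4 to 24.0) in Sd3, while Prm1 itself was flat at 3910, 3759 and 3828 CPM. In CPM, Prm3 in Sd3 was at the level of Sg, but the ratio to Prm1 was not, at 23.2 against 3.84. The KO library gave 4.23, 7.35 and 22.3. After thinning each cell to 3000 UMIs, which left out 0 cells, so that depth does not set the share, 27.7% of WT cells had a Prm3 UMI in Sd1, 51.7% in Sd2, 85.9% in Sd3 and 99.7% in Sd4, and 30.8%, 49.9%, 80.8% and 100% of KO cells did. At full depth the WT shares were 47.0%, 74.5%, 94.4% and 100%. For comparison, 53.0% of thinned WT Sg cells had a Prm3 UMI, so the shares in Sd3 and Sd4, but not those in Sd1 and Sd2, stood above that level. For Tnp1, Sd3 was not above the background in level or share of cells, at 1227 CPM in WT against 5600 CPM in Sg and with a UMI in 84.3% of thinned WT cells against 87.7%. Its ratio to Prm1 went the other way, with 32.0 UMIs per 100 Prm1 (31.1 to 33.0) in WT Sd3 against 26.2 (25.6 to 26.9) in Sg and 30.8 against 27.0 in KO, so the measures disagree there. By the share of cells it was Sd4 to Sd9, at 96.4% or more, that stood above the Sg share in WT, while Sd10 at 88.6% was near it.

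Within the later clusters the mixture shifted from transition proteins to protamines and then to Prm2. In WT Sd5 to Sd7, Tnp1 held 19.5% to 19.7% and Tnp2 10.4% to 10.5% of the summed UMIs of the 5 genes. In Sd9 they held 3.31% and 2.41%, and in Sd10 1.49% and 0.937%, so in late spermatids the mixture was almost wholly protamine mRNA. Prm1 went from 54.9% in WT Sd8 to 62.5% in Sd9 and 24.5% in Sd10, with 56.0%, 61.0% and 21.5% in KO. Prm2, the precursor's gene, was at 16.9%, 29.1% and 71.0% in WT and at 17.1%, 30.6% and 74.6% in KO. Per 100 Prm1 UMIs there were 30.9 Prm2 UMIs (30.7 to 31.0) in WT Sd8, 46.6 (46.3 to 46.9) in Sd9 and 290 (287 to 293) in Sd10. In KO the numbers were 30.5, 50.1 and 346 (343 to 350), so the intervals of the libraries did not overlap in Sd9 and Sd10. A UMI counts a molecule once whatever its length, but capture can differ between transcripts, so these ratios are read between clusters and not as amounts of one mRNA against another.

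**Figure D3:**
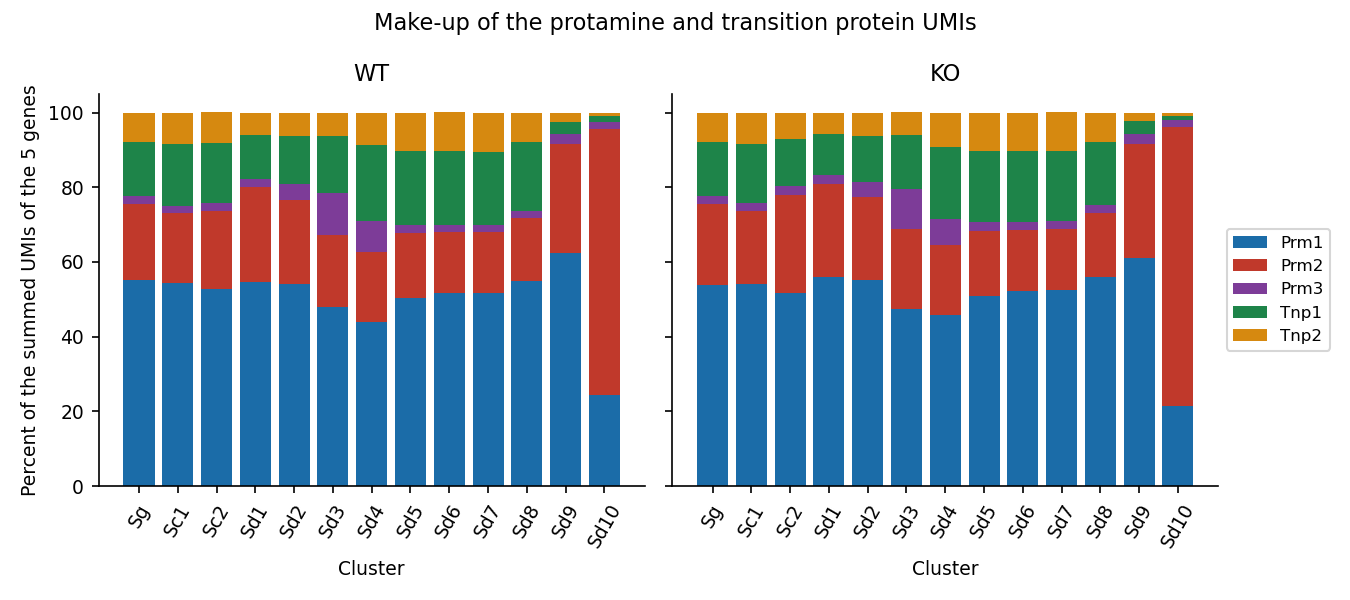
Percent of the summed UMIs of the 5 genes (vertical axis, stacked to 100) held by each gene in each of the 13 clusters (horizontal axis), WT left and KO right. Prm2 makes up 26.2% in KO Sc2 against 21.6% in KO Sg, Prm3 is widest in Sd3 at 11.1% in WT, and Prm2 makes up 71.0% in WT Sd10 and 74.6% in KO Sd10.

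Single cells showed how sharp these steps are inside a cluster. In Sd4 the members other than Prm3 were spread over a wide range, with quartiles of 1830 and 24067 CPM for Prm1 in WT and 2707 and 32600 CPM in KO, and with rank correlations over the 379 WT cells of 0.89 between Prm1 and Prm2 and 0.89 between Prm1 and Tnp1 (0.92 and 0.93 over 520 KO cells). Prm3 had narrow quartiles there, 1973 and 3083 CPM in WT and 2043 and 3166 CPM in KO, and its rank correlation with Prm1 was 0.27 and 0.33. In Sd9, Tnp1 and Tnp2 moved together over cells (0.87 over 421 WT and 435 KO cells), and both moved against Prm2, with -0.58 for Tnp1 and -0.63 for Tnp2 in WT and -0.62 and -0.68 in KO. Prm1 and Prm2 went from 0.52 in WT Sd8 to -0.48 in Sd9 and -0.43 in Sd10 (0.62, -0.60 and -0.31 in KO). Prm1 and Prm3 were at 0.84 over 184 WT cells and 0.82 over 278 KO cells in Sd10. These correlations describe cells of 1 library that share its depth and free RNA, and shares of 1 total, so that a rise of one abundant transcript lowers the CPM of the others.

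The comparison of KO with WT covered 65 pairs of a member and a cluster. Of these, 0 were at least 25% higher in KO and 4 were at least 20% lower, namely Tnp1 and Tnp2 in Sc2 and in Sd10. Over all genes with at least 100 UMIs in the 2 libraries together, 9.0% of 39948 gene and cluster pairs were that much higher and 6.28% that much lower, so 4 of 65 is near the share among those genes. All 65 pairs of the members had over 1000 UMIs. Among the 15968 pairs of all genes with at least 1000 UMIs, 3.53% were higher and 1.56% lower (3.60% lower in Sc2 and 6.20% in Sd10). How 4 of 65 stands beside all genes thus depends on that minimum. The 4 pairs are 2 genes of similar course in 2 clusters, at levels below those in Sg. With the mean of single-cell CPM 2 of them stayed past the limit, so no excess over all genes is read from them. KO was above WT in 27 pairs and below in 38, the log2 ratio ran from -0.55 to 0.30, and its median was -0.01. From Sd5 to Sd8, where most member UMIs lie, all ratios were within -0.13 and 0.05, and KO and WT were nearly equal for the protamines. The summed level of the 5 genes had a log2 ratio of -0.02 (-0.03 to -0.02) in Sd8, -0.06 (-0.06 to -0.05) in Sd9 and -0.10 (-0.11 to -0.10) in Sd10.

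In Sd8, 0 of 5 members were past these limits, where 13.4% of 2688 genes were higher and 3.68% lower. Prm1 was at 157913 CPM in WT and 158505 CPM in KO, a log2 ratio of 0.01, and Prm2 at -0.01. Tnp1 had the lowest value there, -0.13 (-0.14 to -0.12), and was below WT in each cluster from Sd5 to Sd8, at -0.07 to -0.13. In Sd9 again 0 of 5 passed, against 17.1% of 2213 genes higher and 5.60% lower. Prm1 was at -0.09 (-0.10 to -0.09), Tnp1 at -0.07, Tnp2 at -0.08, and Prm2 and Prm3 at 0.01 each.

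In Sd10, Tnp1 differed between KO and WT about as much as in Sc2 (log2 -0.55 and -0.54, with overlapping intervals). With the mean of single-cell CPM its difference was larger in Sc2 (-0.55 against -0.25), and with background subtracted in Sd10 (-2.04 against -1.03). Tnp2 and Prm3 were at -0.47 and -0.19 in Sc2 and at -0.41 and -0.10 in Sd10, again with overlapping intervals for each gene. Prm1 differed in Sd4 about as much as in Sd10, but with KO higher. In Sd10 Prm1 was at 38041 CPM in WT and 31101 CPM in KO, a log2 ratio of -0.29 (-0.31 to -0.27), which is 1.22-fold lower and not past the limit. Tnp1 was at 2313 CPM in WT and 1580 CPM in KO, or 1.46-fold lower (log2 -0.55, -0.63 to -0.47), and Tnp2 at 1454 and 1093 CPM, or 1.33-fold lower (-0.41, -0.51 to -0.32). Prm2, at 110257 and 107681 CPM, had a log2 ratio of -0.03 and Prm3 -0.10. In this cluster 11.7% of 1488 genes were at least 20% lower and 18.0% at least 25% higher, against 2 and 0 of 5 members. The levels of Tnp1 and Tnp2 in Sd10 were below those in Sg, so by that measure they are not read as expression. The cluster with the fewest Tnp1 UMIs per cell, Sd2 in WT and Sd1 in KO, gives a lower background, 7.61 and 8.18 UMIs per cell. The backgrounds thus disagree on whether any Tnp1 above background was left in Sd10. With the lower one subtracted the ratios were -2.04 for Tnp1 and -1.16 for Tnp2, values that rest on that choice, and Prm1 went from -0.29 to -0.43, which is past the limit.

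The sums of Tnp1 and Tnp2 in Sd10 rested on few cells, and the typical cell did not have less of them in KO. The median cell was at 718 CPM of Tnp1 in WT and 777 CPM in KO, and the quartiles were 419 and 1581 CPM in WT and 378 and 1494 CPM in KO. The 95th percentile was 8762 CPM in WT and 6037 CPM in KO, so the groups differed at the upper end. The 10% of cells with most Tnp1 UMIs, 19 in WT and 28 in KO, held 71.1% of the Tnp1 UMIs of the cluster in WT and 55.4% in KO. Tnp2 gave medians of 723 and 739 CPM and 95th percentiles of 5827 and 3066 CPM. The 10% of cells with most Tnp2 UMIs held 61.1% of them in WT and 44.9% in KO. With the median cell in place of the sum, the log2 ratio turned to 0.11 for Tnp1 and 0.03 for Tnp2. With the mean of single-cell CPM it was -0.25 and -0.16, and with the 5% of cells with most UMIs left out -0.32 and -0.19, which are not past the limit. Prm1 kept its direction with the median cell, at 29025 CPM in WT and 25949 CPM in KO (-0.16), and Prm2 had a longer low tail in KO, with a 5th percentile of 9003 CPM against 36429 CPM in WT.

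**Figure D4:**
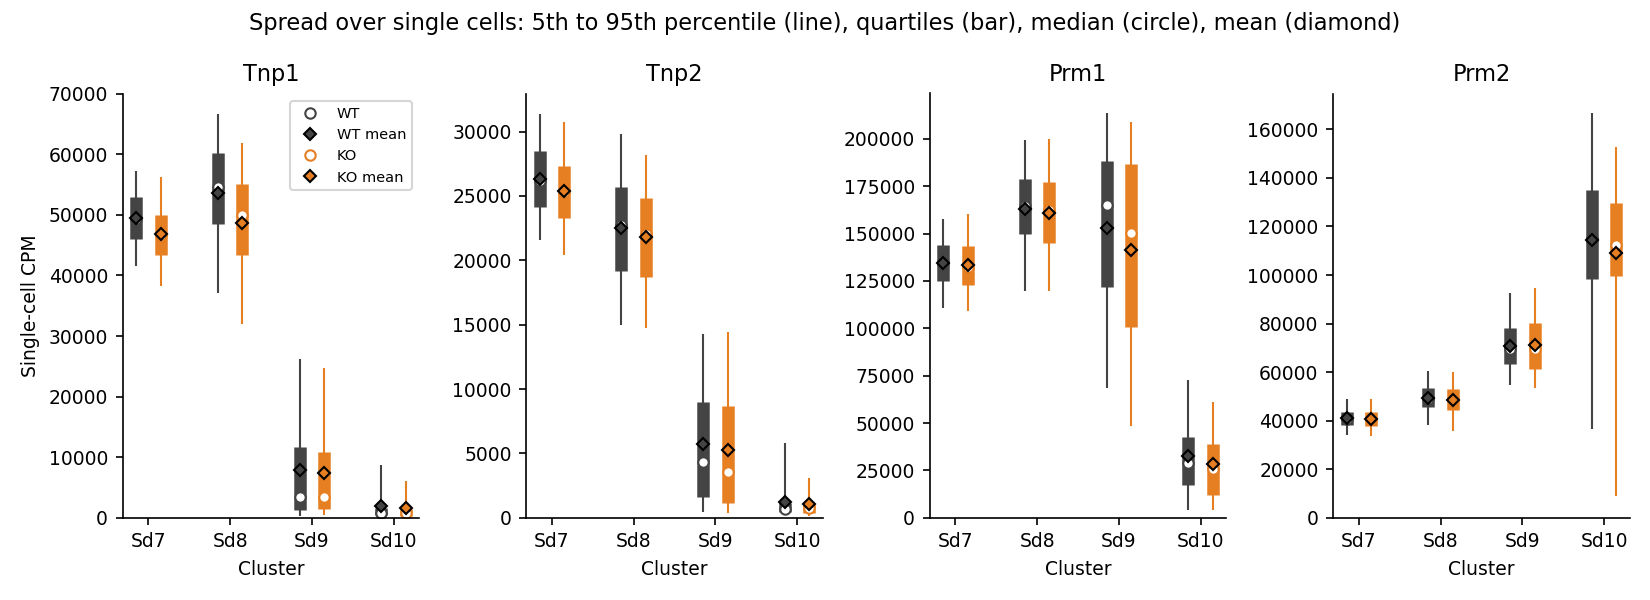
Single-cell CPM (vertical axes, each from 0) of Tnp1, Tnp2, Prm1 and Prm2 in Sd7 to Sd10 (horizontal axis), grey for WT and orange for KO, with thin lines from the 5th to the 95th percentile, thick bars between quartiles, circles at the median and diamonds at the mean. In Sd9 and Sd10 the mean of Tnp1 lies above the median in both libraries, and in Sd10 the medians are 718 CPM in WT and 777 CPM in KO.

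Sc2 gave the other pairs past the limit. Tnp1 was at 1625 CPM in WT and 1114 CPM in KO (log2 -0.54, -0.58 to -0.51) and Tnp2 at 841 and 607 CPM (-0.47, -0.52 to -0.42), where 12.1% of 4070 genes were at least 20% lower. Both are below the levels in Sg, so they are not read as expression. Over the whole library Tnp1 was at 16480 CPM in WT and 12322 CPM in KO, and Tnp2 at 8309 and 6358 CPM. In Sg, by contrast, the log2 ratio was -0.00 for both genes. Whether the lower library level is part of the differences in Sc2 and Sd10 was not tested. Here too 10% of the cells, 49 in WT and 90 in KO, held most of the Tnp1 UMIs, 80.1% and 77.4%, and with the median cell the ratio was -0.06 for Tnp1 and -0.18 for Tnp2. Subtracting the lowest cluster as background gave -1.03 for Tnp1 and -0.96 for Tnp2. Prm1 was at -0.26 and Prm2 at 0.10 in the same cells, directions that did not hold in all alternatives, with a range of -0.93 to 0.11 for Prm1 and values down to -0.07 for Prm2.

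Prm1, Prm2, Tnp1 and Tnp2 were higher in Sd4 than in Sd3, and Sd4 was where their ratio of KO to WT was highest. The log2 ratio was 0.30 (0.29 to 0.32) for Prm1, 0.26 (0.23 to 0.28) for Prm2, 0.18 (0.16 to 0.21) for Tnp1 and 0.29 (0.26 to 0.32) for Tnp2, and 0.03 (-0.01 to 0.06) for Prm3. In this cluster the summed levels of Prm1 and Prm2 in both libraries and Tnp2 in WT were still below those in Sg, so by that measure they are not read as expression. The Sg sums rest on few cells, with 59.0% of the WT Prm1 UMIs in the top 10% of cells. The median cell had more Prm1 in Sd4 than in Sg, at 5947 against 4028 CPM in WT and 11351 against 3550 CPM in KO. The measures thus disagree on whether Prm1 in Sd4 stands above Sg. With the lowest cluster of each library subtracted, the ratio was 0.30 for both Prm1 and Tnp2. None of these is past the limit in Sd4, where 6.89% of 3917 genes were higher past it and 5.72% lower. Prm1 at 0.30 is close to the limit and was past it in 5 of the 10 alternatives. Its ratio was 0.33 when centred on the median of all genes, 0.36 with the mean of single-cell CPM and 0.37 with thinned cells. It was 0.34 without the 5% of cells with most UMIs, and it was also past the limit with the median cell. Tnp2 was past the limit in 3 alternatives. For Prm1, Prm2, Tnp1 and Tnp2 the ratio lay above the median of all genes in Sd4, which was -0.02. With the median cell they were 0.93, 1.11, 0.77 and 1.01 for those 4, with medians of 5947 CPM in WT and 11351 CPM in KO for Prm1. How the cells of this cluster were spread between low and high levels thus differed between the libraries, and the part of that in these ratios was not tested.

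**Figure D5:**
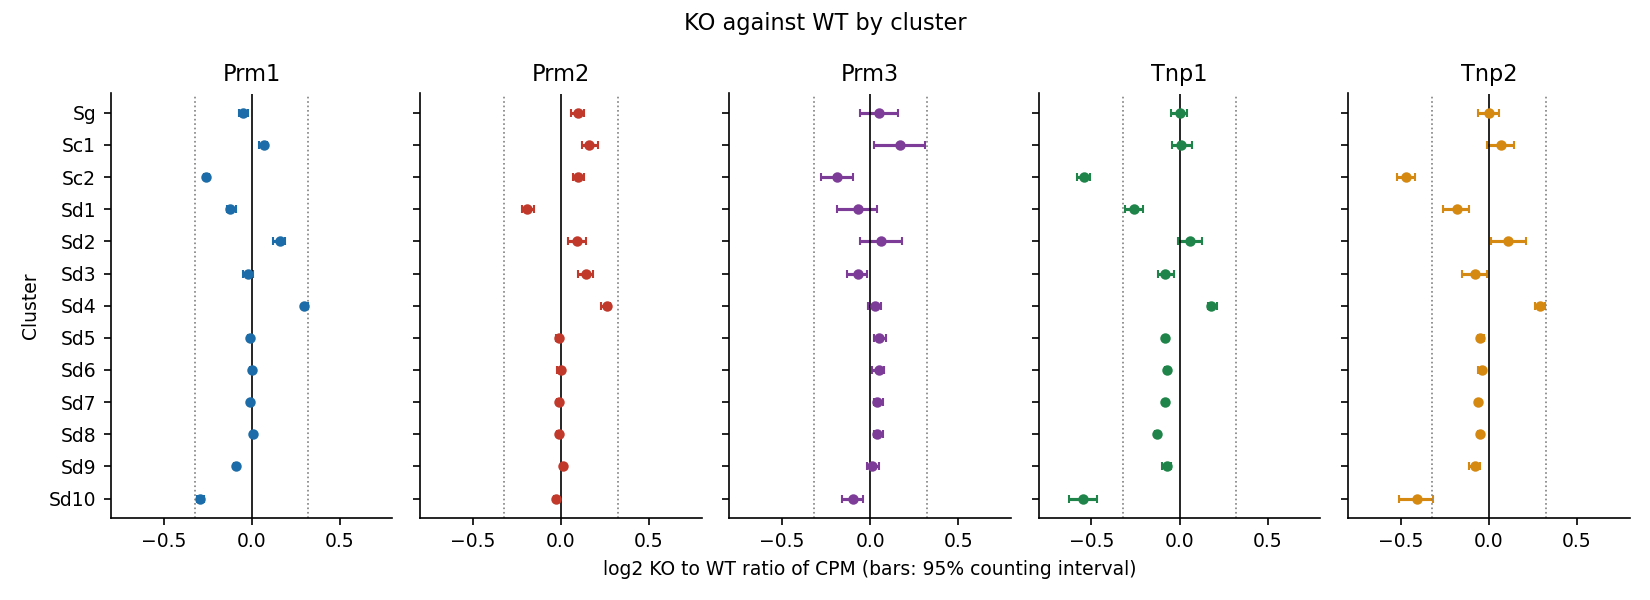
Log2 ratio of KO to WT CPM (horizontal axes) for each gene in each of the 13 clusters (vertical axis), with bars for the 95% counting interval, which covers counting error only, and dotted lines where KO is 25% above or 20% below WT. Points in Sd5 to Sd8 lie within -0.13 and 0.05, and the 4 points beyond a dotted line are Tnp1 and Tnp2 in Sc2 and Sd10.

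Blood and immune markers differed between the libraries in several clusters. Hbb-bs, Hba-a1 and Hba-a2, the haemoglobin genes, summed to 542 CPM in WT Sd9 against 10.2 CPM in KO Sd9, and to 784 CPM in KO Sd8 against 9.39 CPM in WT Sd8. In Sc2, which holds 2 of the 4 pairs past the limit, they were at 240 CPM in WT and 120 CPM in KO, in Sd6 at 195 and 39.0 CPM, in Sd7 at 213 and 7.96 CPM, and in Sd2 at 8.04 and 125 CPM. In each library 8 cells had at least 10 haemoglobin UMIs, 2 of them in WT Sd9 and 1 in KO Sd8. Without those cells the ratio of the summed members in Sd8, Sd9 and Sd10 was the same to 2 decimals, the same 4 pairs were past the limit, and Tnp1 in Sd10 was at -0.49 in place of -0.55, where 1 WT cell had been left out. Cd74, a macrophage marker, was at 59.9 CPM in WT Sd10 and 0.567 CPM in KO Sd10, and C1qb at 56.7 and 48.8 CPM.

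Genes with related roles were followed from lists, of which only symbols with 1 possible row could be read. No background was subtracted for them. For list genes highest in early clusters, low levels in Sd9 and Sd10 may hold background, and its part in the ratios was not tested. Of 15 spermatid and testis histones 8 were readable. Hils1, a linker histone of elongating spermatids, was highest in Sd6 at 4794 CPM in WT and 4525 CPM in KO. H1fnt, another spermatid linker histone, was highest in Sd8 at 1452 and 1372 CPM and H2afb1, a short H2A variant, in Sd9 at 3068 and 2937 CPM, while H3f3b, which encodes a histone of all cell types, was highest in Sc1 at 5958 and 5246 CPM. H3f3a, the other gene of that histone, was at no more than 271 CPM in WT. The order Hils1, H1fnt, H2afb1 thus ran from before the Tnp2 peak to after the Prm1 peak. In Sd10, 4 of them had at least 100 UMIs and 0 were past the limit in either direction (all genes, 18.0% higher and 11.7% lower), with a median log2 ratio of -0.13 against 0.01 for all genes.

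Of 24 genes of the histone to protamine exchange 12 were readable. In Sd10 6 had at least 100 UMIs, of which 4 were at least 25% higher in KO and 0 at least 20% lower, where 18.0% of all genes were higher and 11.7% lower, with a median log2 ratio of 0.57 against 0.01 for all genes. In Sd9 3 of 9 were higher and 1 lower, where 17.1% of all genes were higher and 5.60% lower, with a median of 0.22 against 0.04. Tssk6, a kinase of late spermatids, was highest in Sd10 as Prm2 was, at 3337 CPM in WT and 3340 CPM in KO (0.00). Phf7, a ubiquitin ligase for histones, was highest in Sc2 in WT (1834 CPM) and in Sd7 in KO (2429 CPM), and in Sd10 it was at 89.4 and 120 CPM (0.42, 0.08 to 0.77). Ccer1, a nuclear protein of spermatids, was at 22.9 and 27.8 CPM in Sd9 (0.28, -0.24 to 0.80). Cdyl, a chromodomain protein, was at 48.5 and 67.8 CPM in Sd8 (0.48, 0.22 to 0.75) and at 20.2 and 18.8 CPM in Sd9. Chd5, a chromatin remodeller, was at 53.5 and 88.0 CPM in Sd10 (0.71, 0.30 to 1.15) and at -0.07 in Sd8. Psme4 and Usp7 are named after their values were seen, as the rest of the 4 that were higher in Sd10. Psme4, a proteasome activator linked to the loss of acetylated histones, was at 203 and 478 CPM (1.24, 1.03 to 1.44), and higher in Sd9 (0.60) and Sd8 (0.56) as well. Usp7, a deubiquitinase, was at 24.7 and 43.1 CPM (0.79, 0.18 to 1.45).

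Of 13 factors for spermatid transcription 8 were readable, and in Sd10 1 of 3 with enough UMIs was higher, against 18.0% of all genes. That was Crem, the activator of many spermatid genes, at 75 CPM in WT and 98.7 CPM in KO (0.39, 0.03 to 0.77). In Sd9 2 of 6 were higher and 0 lower, against 17.1% and 5.60% of all genes. Fhl5, a partner of Crem, was highest in Sd5 at 1453 CPM in WT and 1349 CPM in KO, and in Sd9 at 64.5 and 51.7 CPM (-0.32, -0.66 to 0.02). Tbpl1 and Gtf2a1l, of the general transcription machinery of germ cells, were highest in Sd1, at 922 and 620 CPM in WT. In Sd9 they were far lower, at 19.5 and 31.4 CPM (0.68, 0.16 to 1.22) and at 16.8 and 25.5 CPM (0.60, 0.03 to 1.19). The spermatocyte marker list also summed to 166 CPM in WT Sd9 and 202 CPM in KO Sd9. Sd1 held 513 of 5170 WT cells and 1057 of 7238 KO cells, and the part of such background in these 2 ratios was not tested. Sox5, an HMG box factor, was highest in Sd4 at 791 and 749 CPM, and in Sd9 at 34.3 and 31.0 CPM (-0.15, -0.60 to 0.30).

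Of 17 genes for storage and translation 13 were readable. In Sd10 2 of 5 were higher and 0 lower, against 18.0% and 11.7% of all genes, and in Sd9 3 of 6 were higher, against 17.1%. The medians were -0.06 in Sd10 and 0.27 in Sd9. Fxr1, an RNA-binding protein that activates translation of stored mRNAs, was at 3601 CPM in WT and 4611 CPM in KO in Sd10 (0.36, 0.30 to 0.41) and Pabpc1, a poly(A)-binding protein, at 224 and 295 CPM (0.40, 0.18 to 0.61). Pabpc1 was highest in Sc2, at 9111 and 8651 CPM, so its Sd10 level is low beside that. Ybx2, which binds and holds spermatid mRNAs, was at 866 and 827 CPM (-0.07, -0.18 to 0.05), and Paip2, an inhibitor of poly(A)-binding protein, at 864 and 751 CPM (-0.20, -0.32 to -0.08). Ddx25, a helicase of spermatid mRNA storage, was highest in Sd1 (918 CPM in WT and 969 CPM in KO) and far lower in Sd9, at 24.0 and 36.8 CPM (0.61, 0.14 to 1.1). For phosphorylation and folding 5 of 7 were readable, and in Sd10 0 of 2 were past the limit, with Hspa4l, a chaperone, at 1335 and 1395 CPM (0.06) and Srpk1, a kinase of arginine-rich proteins, at 70.2 and 78.3 CPM (0.16, -0.24 to 0.56). In Sd9 2 of 5 were higher, against 17.1% of all genes, the chaperones Hspa2 at 28.6 and 44.3 CPM (0.63, 0.20 to 1.07) and Hspa4 at 25.2 and 42.3 CPM (0.74, 0.29 to 1.21), while Camk4, a kinase, was at 64.1 and 57.6 CPM (-0.15). Hspa2 was highest in Sc2 (952 and 874 CPM) and Hspa4 in Sg (311 and 361 CPM), so their Sd9 levels are low beside these.

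Other late spermatid transcripts, 20 of 20 readable, served for comparison. Their sum was highest in Sd10 in both libraries, at 105341 CPM in WT and 108653 CPM in KO, as for Prm2. Smcp, of the mitochondrial capsule, was at 40140 and 42835 CPM (0.09), Oaz3, an antizyme, at 30623 and 31904 CPM (0.06), Gapdhs, the sperm glycolytic enzyme, at 7117 and 6748 CPM (-0.08), and Spata3 at 4475 and 4217 CPM (-0.09). Ldhc, the germ cell lactate dehydrogenase, had its highest level in Sd1 (8341 and 8052 CPM) and was at 711 and 620 CPM in Sd10 (-0.20, -0.33 to -0.07). Of 19 with at least 100 UMIs in Sd10, 1 was higher past the limit and 0 lower, against 18.0% and 11.7% of all genes. It was Cylc2 of the sperm head calyx at 145 and 343 CPM (1.24, 1.0 to 1.49), and the median was -0.04.

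The genes whose course was most like each member were ranked by Pearson's r of log2(CPM + 1) over the 13 WT clusters, among 4812 genes with at least 100 UMIs in each library. For Tnp1 these were Tex37 (0.9965), Tnp2 (0.9951), Ppp1r2-ps7 (0.9918), Tfam (0.9879) and Vmn2r7 (0.9866), and for Tnp2 they were Tfam (0.9960), Tnp1 (0.9951), Tex37 (0.9933), Cstl1 (0.9910) and Hmgb1-rs17 (0.9885). The transition protein genes, on 2 chromosomes, were thus each other's second most alike gene, in WT and in KO. On linear CPM each was still among the genes most like the other, but behind Tex37 and Gm4665 and no longer second. Prm1 had Klk1b8 (0.9992), Paqr5 (0.9982), Nqo2 (0.9964), Klk1b9 (0.9948) and 1700008P02Rik (0.9915). Prm3 had Pkib (0.9977), Ccdc54 (0.9967), Atp1a4 (0.9956), Cdc14a (0.9929) and 1700024P04Rik (0.9928). Prm2 had 1700027A15Rik (0.9997), 1700080E11Rik (0.9991), 1700012A03Rik (0.9985), Gm498 (0.9980) and Lrrc57 (0.9976), all highest in Sd10. Klk1b8 and Klk1b9 are close copies, and Hmgb1-rs17 and Ppp1r2-ps7 are copies of other genes, so reads may be shared with those.

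Neighbours on chromosome 16 differed in how alike their courses were. For Tnp2, Prm1 was at rank 65 of 4812 (r of 0.931), and for Prm1, Tnp2 was at rank 139, Prm2 at rank 151 and Prm3 at rank 231. Among the genes ranked by likeness to Prm2, Prm1 was at rank 220, Prm3 at rank 328 and Tnp2 at rank 512. Their r with Prm2 was 0.927, 0.881 and 0.762 over the 13 WT clusters. For Prm3, Prm1 was at rank 358, Prm2 at rank 452 and Tnp2 at rank 606. The gene most like Prm2, 1700027A15Rik, is the one that overlaps Tnp1 on the opposite strand, and it was at 12145 CPM in WT Sd10, where Tnp1 was at 2313 CPM. Its course was thus that of Prm2 and not that of the gene it overlaps, whose r with Prm2 was 0.714. The points share libraries, depth and free RNA, so these values describe the clusters only.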

How the data were processed

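Testis cells were measured by single-cell RNA-seq (1 library per genotype). As the methods and the submitters' processing notes state, the authors checked reads with FastQC 0.11.7, trimmed them with fastp 1, aligned them to mm10 with STAR 2.5.3a, counted them with featureCounts 1.6.2, and filtered, integrated and clustered the cells in Seurat 3.2.3. The deposited matrix holds raw UMI counts, and the deposited cell table gives each cell's cluster, library and percent of mitochondrial UMIs. Limits of the cell filter are not given in the sources used here. The methods do not say whether the authors called doublets, and no doublet caller was run here. The symbol list is shorter than the matrix (25065 lines, 26758 rows), so rows were anchored on 30 mitochondrial symbols, whose UMIs then gave the tabled percent in 12408 of 12408 cells (662 if line number is row number), and only rows seen in under 5 cells were taken to lack a symbol. Without that rule Tnp2 had 2 possible rows and the other members 1.

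UMIs were summed per library and cluster. Log2 ratios have a prior of 1 UMI, shared by depth, and exact conditional intervals, shares of cells exact binomial intervals and CPM exact Poisson intervals, all of them 95%. For the results 10 alternatives and folds of 1.5 and 1.1 were tried, of which the median of single-cell CPM and leaving out cells with haemoglobin were chosen after seeing the data. The members and lists were chosen with earlier results of these data known. Beside the 5 members, the genes named are the 5 most like each, and from each list up to 5 with the highest WT CPM in any cluster among those with at least 100 UMIs in Sd8, Sd9 or Sd10; others are named as such or as the few past the limit. The ratio and its interval were tested on simulated data. Python 3.11.15, numpy 2.4.6, scipy 1.17.1, pandas 2.3.3 and matplotlib 3.10.9 were used.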

Additional observations from a re-analysis of the deposited data

Results flagged for a closer look

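Prm1 and Tnp2 had KO to WT log2 ratios of opposite sign in different clusters, each with a counting interval on 1 side of 0 and a size of at least 0.25. Prm1 was at 0.30 in Sd4 and -0.29 in Sd10. Tnp2 was at 0.29 in Sd4 and -0.47 in Sc2. With 1 library per genotype the differences between clusters were not tested.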

How the results depend on the processing

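No paired analysis was possible because the labels carry no replicate numbers and each genotype is 1 library, and no replicate could be left out. The log2 ratio of the summed members in Sd8, Sd9 and Sd10 (-0.02, -0.06 and -0.10) stayed below 0 under all 10 alternatives. It was -0.03, -0.08 and -0.12 with totals without the members, -0.06, -0.10 and -0.11 when centred on the median of all genes, -0.04 and -0.07 in Sd8 and Sd9 with the mean of single-cell CPM, -0.04, -0.07 and -0.09 with thinned cells, -0.04, -0.07 and -0.11 without the 5% of cells with most UMIs, -0.04, -0.08 and -0.14 with background subtracted, and -0.04, -0.08 and -0.07 with the median cell. The Sd10 to Sd8 ratio (-0.89 in WT and -0.97 in KO) was -1.14 and -1.22 without the members in the total, -0.94 and -1.0 with mean cells, -0.95 and -1.0 with thinned cells, -0.92 and -0.99 without the deepest cells, -0.92 and -1.03 with background subtracted, and -0.93 in KO with the median cell.

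Of 65 pairs (58 with background subtracted, 64 with the median cell), 0 were at least 25% higher and 4 at least 20% lower as reported. The numbers were 1 higher when centred, 2 and 2 with mean cells, 1 and 2 with thinned cells, 2 and 2 without the deepest cells, 1 and 11 with background subtracted, and 4 and 1 with the median cell. At 1.5-fold 0 were lower, and at 1.1-fold 8 were higher and 10 lower. Shares of all genes are given here only for the main levels at 25% higher or 20% lower. The counts under alternatives and at other folds are therefore not read against a background. With the median cell, Tnp1 and Tnp2 in Sd10 turned to 0.11 and 0.03, while background subtraction gave -2.04 and -1.16. The cause was not tested. Leaving out mitochondrial genes or cells with haemoglobin, or a prior of 10 UMIs, moved none of these results past its counting interval. With a minimum of 10 or 1000 UMIs, 12.9% or 1.56% of all pairs were lower. On linear CPM 1 to 3 of the 5 genes most like each member remained. Depth limits Prm3 in several clusters, among them Sd1, with a median of 0 UMIs per WT cell. Thinning took the share of WT cells with a Prm3 UMI from 47.0% to 27.7% in Sd1. In Sc2 it went from 51.6% to 28.5%, and in Sd2 from 74.5% to 51.7%.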
